A study of Mus musculus with 3 samples.

Results

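The following 10 genes are described in cells of the mouse left ventricle: Txnip, Irs1, Irs2, Insr, Sesn1, Sesn3, Ccng2, Pik3ip1, Cited2 and Fbxo32, which are 10 of the 30360 genes in the deposited matrices. They were chosen by symbol, as parts of insulin receptor signalling or as genes whose transcription the FoxO factors are known to control. All 10 were found in each of the 3 matrices.

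Cells came from C56Bl6 mice, as the labels spell the strain, in 3 single-cell RNA libraries with 1 library per group and 4 pooled samples per library. The library labelled HFpEF-FoxO1-sh came from a High-Fat + L-NAME diet of 6 weeks with AAV-FoxO1-sh, an adeno-associated virus carrying a short hairpin against FoxO1, for 4 weeks. HFpEF-scr had the same diet and AAV-scramble-sh over the same times, so its comparison with the library labelled HFpEF-FoxO1-sh holds diet and vector class constant. Control had a standard diet for 10 weeks with no vector named, so in HFpEF-scr over Control the effects of diet, L-NAME and vector cannot be told apart. L-NAME blocks nitric oxide synthesis, and its pairing with high-fat feeding is used in mice to mimic HFpEF, heart failure in which the ejection fraction is preserved. The labels give neither age nor sex, and say neither which promoter drives the hairpin nor which cells the vector enters. Cardiomyocytes were strained out with a 70 µm mesh before the libraries were made, so the values come from the non-myocyte cells.

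Insulin binds its receptor, a tyrosine kinase, which phosphorylates the docking proteins IRS1 and IRS2. These recruit PI3K, whose lipid product activates AKT, and AKT phosphorylates FoxO factors so that they leave the nucleus. Nuclear FoxO switches on genes that restrain growth, such as sestrins, cyclin G2 and atrogin-1, and also Irs2 and Insr, through which low insulin signalling raises the sensitivity of the cell.

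The 4 genes of the set whose fibroblast level differed by at least 1.2-fold between the library labelled HFpEF-FoxO1-sh and HFpEF-scr are Txnip, Irs2, Cited2 and Sesn3, and the 250 bases before their RefSeq start sites are shown so that the letters can be read beside those values (GRCm38.p6). Capitals mark the matches to 3 motifs searched on both strands and chosen with these sequences in view: the FoxO core GTAAACA, the E-box CACGTG, and paired carbohydrate response half-sites, CACGNG and again CACGNG with 5 bases between them, which the factor ChREBP and its relative MondoA can bind. An E-box is itself 1 form of a CACGNG half-site. The windows lie at chr3:96557707-96557956 on the plus strand for Txnip, chr8:11008930-11009179 on the minus strand for Irs2, chr10:17722978-17723227 on the plus strand for Cited2 and chr9:14276051-14276300 on the plus strand for Sesn3.
Txnip: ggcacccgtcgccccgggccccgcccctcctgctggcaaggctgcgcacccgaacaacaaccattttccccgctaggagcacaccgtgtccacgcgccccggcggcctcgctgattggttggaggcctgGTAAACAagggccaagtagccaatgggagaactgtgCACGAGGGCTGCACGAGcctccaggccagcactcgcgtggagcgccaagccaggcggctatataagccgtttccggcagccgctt
Irs2: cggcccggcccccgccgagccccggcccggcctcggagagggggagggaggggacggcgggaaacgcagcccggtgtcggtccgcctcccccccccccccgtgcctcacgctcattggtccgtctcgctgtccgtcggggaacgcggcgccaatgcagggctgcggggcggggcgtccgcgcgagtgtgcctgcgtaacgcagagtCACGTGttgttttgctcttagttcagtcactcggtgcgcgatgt
Cited2: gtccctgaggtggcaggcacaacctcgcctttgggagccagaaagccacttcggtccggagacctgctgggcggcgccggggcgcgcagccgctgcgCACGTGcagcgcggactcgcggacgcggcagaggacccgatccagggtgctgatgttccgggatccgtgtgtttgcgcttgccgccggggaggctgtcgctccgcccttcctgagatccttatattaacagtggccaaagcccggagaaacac
Sesn3: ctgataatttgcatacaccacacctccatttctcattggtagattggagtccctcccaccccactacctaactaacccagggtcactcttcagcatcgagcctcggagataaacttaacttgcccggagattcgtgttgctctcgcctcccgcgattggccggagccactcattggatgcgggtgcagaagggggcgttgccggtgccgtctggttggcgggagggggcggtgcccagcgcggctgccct

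Promoters were matched for 8 of the 10 genes, with Insr and Fbxo32 the exceptions. Txnip alone among those 8 held GTAAACA, 121 bases before its start, a core found in 1040 of 32851 promoter windows (3.17%). It also alone held the paired half-sites, as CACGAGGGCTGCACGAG 85 bases before its start, a pattern found in 15 of the windows (0.0457%). CACGTG stood in the windows of Irs1, Irs2 and Cited2, at 115, 44 and 153 bases before the start, and in 6.02% of all windows. A match is a description of the letters in the window and says nothing of binding. The lack of one says only that these letters are not in that window. GTAAACA was the only letter form of a FoxO site searched for. Windows without it, such as those of Irs2 and Sesn3, were not searched for other forms.

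Sequencing gave 144561934 UMIs in 27453 barcodes of the library labelled HFpEF-FoxO1-sh, 154385813 in 36179 of HFpEF-scr and 146230530 in 33022 of Control. A UMI, or unique molecular identifier, counts 1 captured RNA molecule. After filters 16854, 14567 and 12757 cells were kept in the libraries labelled HFpEF-FoxO1-sh, HFpEF-scr and Control, with median depths of 6607, 6520 and 6889 UMIs. The median mitochondrial share of kept cells was 9.323% in the library labelled HFpEF-FoxO1-sh, against 12.64% in HFpEF-scr and 12.94% in Control, and the share of barcodes over the 20% limit was 31.24%, 53.85% and 56.87% in that order of libraries. Pairs of libraries shared 238 to 335 cell barcodes, at most 1.01% of a library. Foxo1, the gene the hairpin is directed against, had 59.7, 56.2 and 61.1 CPM (UMIs per 1000000) over all kept cells of the libraries labelled HFpEF-FoxO1-sh, HFpEF-scr and Control, so it was not lower in the library labelled HFpEF-FoxO1-sh than in HFpEF-scr. Endothelial cells were an exception, with 63.1 CPM against 81.0 CPM in HFpEF-scr, a ratio of 0.779 (0.676 to 0.897), and 67.3 CPM in Control.

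Cells fell into 31 clusters, of which 30 took a class from marker genes, and 12 classes with at least 50 cells in every library were compared. Class names stand for fibroblast-like, macrophage-like and so on. Most cells were fibroblasts, 10779, 9373 and 8485 of them in the libraries labelled HFpEF-FoxO1-sh, HFpEF-scr and Control, and macrophages came next with 2090, 1633 and 1186. The summed level of 10 fibroblast markers was 48303, 48787 and 48533 CPM in fibroblasts in that order, with none at 0. Such markers also stood at 35180, 38991 and 37929 CPM in the erythroid class, a cluster led by globin genes, and at 3059, 22594 and 26691 CPM in B cells, so these classes hold fibroblast RNA. B cells were a mix of clusters in unlike shares: one led by Cd79a, Ly6d and Cd79b held 704 of 722 cells in the library labelled HFpEF-FoxO1-sh, 130 of 215 in HFpEF-scr and 102 of 185 in Control, and the other had a median doublet score of 0.238. The cluster called T cells held as many natural killer markers as T cell markers among its top genes, 5 of each.

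Each level is a sum of UMIs over the cells of a class per 1000000 UMIs of that class (CPM), and each ratio has an exact 95% interval. With 1 library a group these intervals cover counting error only, no p-value can be had, and a difference is one between libraries, with no replicate check. Fewer RNA molecules in each cell and fewer expressing cells cannot be told apart in such sums.

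At a ratio of 1.5 the shares of pairs past the threshold were close to or below those over all genes. Of 120 pairs of gene and class, 110 had at least 20 UMIs over the 2 libraries in each comparison. In the library labelled HFpEF-FoxO1-sh against HFpEF-scr, 4 pairs were higher past 1.5 with an interval excluding 1 (3.64% of pairs, against 2.94% over all genes and classes) and 3 were lower (2.73%, against 4.73% over all genes and classes). In HFpEF-scr over Control, 2 pairs were higher (1.82%, against 2.53%) and 0 were lower (against 2.9%). The ratio lay above 1 in 68 of the 110 pairs in the first of these comparisons and in 58 of 110 in the second. The share of all genes above 1 was not counted. The median ratio of all genes ran from 0.85 in B cells to 1.03 in fibroblasts in the first. In the second it ran from 0.98 in macrophages to 1.02 in smooth muscle cells. Both comparisons share the HFpEF-scr library. Below, the first pair is the library labelled HFpEF-FoxO1-sh against HFpEF-scr, and the second pair is HFpEF-scr over Control.

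**Figure D1:**
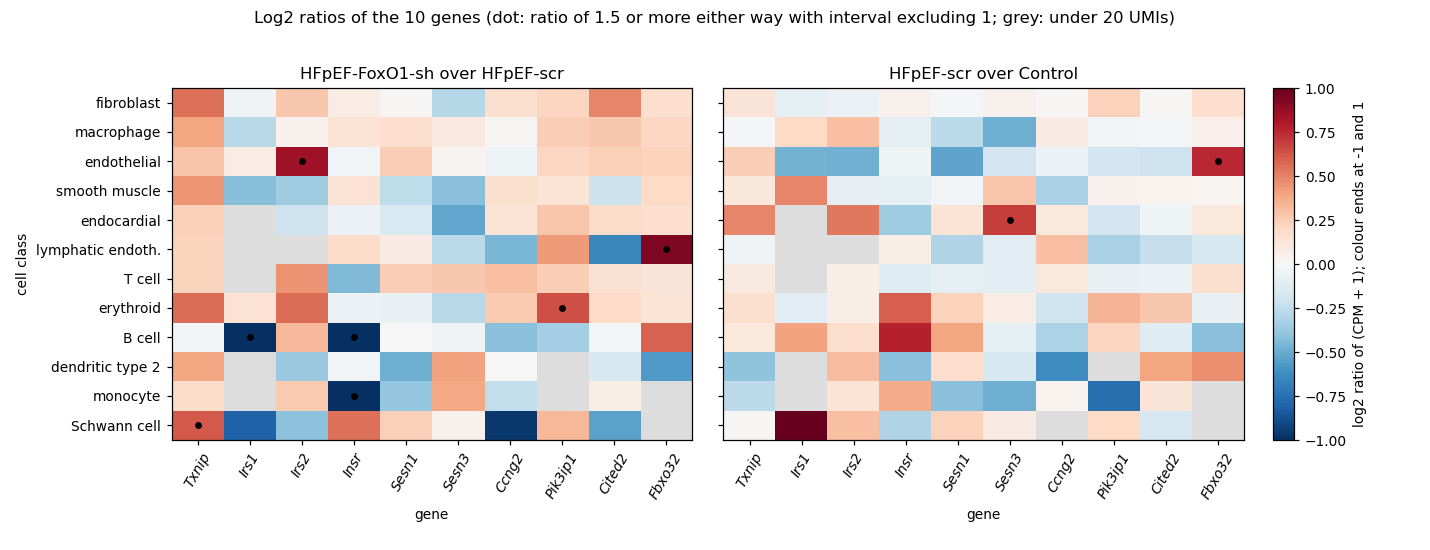
Log2 ratios of CPM + 1 for the 10 genes (columns) in 12 cell classes (rows), with HFpEF-FoxO1-sh over HFpEF-scr on the left and HFpEF-scr over Control on the right; dots mark ratios of at least 1.5 either way with an interval excluding 1, and grey marks fewer than 20 UMIs. The Txnip column on the left is above 0 in 11 of 12 classes, and no dot stands in fibroblasts or macrophages, the classes with the most cells.

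A lower threshold of 1.2, chosen after the values were seen, was used to describe the deeper classes. In fibroblasts 3 of the 10 genes were higher past 1.2 in the library labelled HFpEF-FoxO1-sh than in HFpEF-scr, namely Txnip, Irs2 and Cited2, where 6.74% of all genes tested were, and 1 was lower, Sesn3, where 5.36% of all genes were. In HFpEF-scr over Control, 0 of the 10 passed 1.2 in fibroblasts in either direction, where 5.39% of all genes were higher and 6.47% were lower. In macrophages Txnip and Cited2 were higher past 1.2 and 0 were lower in the library labelled HFpEF-FoxO1-sh, where 7.13% of all genes were higher and 5.39% were lower. The median log2 ratio of the 10 genes in fibroblasts was 0.163 in the first pair (all genes 0.0312) and 0.0275 in the second (all genes -0.0107).

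The receptor itself, Insr, is the tyrosine kinase at the head of the pathway (chr8:3122061-3279617, minus strand, mm10). Its highest levels were in endocardial cells, with 49.4, 51.5 and 66.1 CPM in the libraries labelled HFpEF-FoxO1-sh, HFpEF-scr and Control, so in endocardial cells Control exceeded HFpEF-scr (0.779, 0.63 to 0.959, for HFpEF-scr over Control). Smooth muscle cells followed with 48.7, 44.0 and 47.2 CPM and endothelial cells with 35.4, 36.2 and 37.4 CPM in the same order, and the ranges of these 3 classes did not overlap. Fibroblasts had 23.7, 22.5 and 21.7 CPM and macrophages 25.6, 23.2 and 24.9 CPM, and the intervals of both ratios include 1 in each of these classes. The first-pair ratio was not the same in all bands of mitochondrial share. From 5 to 10% upwards it was 1.24 (1.1 to 1.4), 1.2 (1.07 to 1.34) and 0.869 (0.634 to 1.17) in fibroblasts. In macrophages it was 1.49 (1.09 to 2.07), 0.928 (0.711 to 1.21) and 0.695 (0.386 to 1.18). At the low end were type 2 dendritic cells, with 6.69, 6.86 and 9.52 CPM.

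In B cells Insr had 14.1 CPM in the library labelled HFpEF-FoxO1-sh, against 29.5 CPM in HFpEF-scr and 16.9 CPM in Control. The ratio of the first pair was 0.476 (0.286 to 0.789). That class was lower for very many genes: 26.3% of all genes tested passed the same rule downwards, and the median log2 ratio of all its genes was -0.226. Relative to that median the Insr difference remains in the same direction, and the ratio was 0.437 (0.229 to 0.861) within the cluster led by Cd79a. That cluster held only 29, 16 and 0 Insr UMIs in the libraries labelled HFpEF-FoxO1-sh, HFpEF-scr and Control. These are 14, 32 and 0 CPM, so HFpEF-scr was the highest there and Control the lowest. The class call was lost at a 50% mitochondrial limit (0.778), at a minimum of 100 UMIs and with each cell thinned to 1000 UMIs, where the ratio was 1.19. Beside it, the fibroblast markers in B cells were at 3059 CPM in the library labelled HFpEF-FoxO1-sh and 22594 CPM in HFpEF-scr, and the part this plays was not tested. In monocytes Insr had 11.4, 27.0 and 20.6 CPM in the libraries labelled HFpEF-FoxO1-sh, HFpEF-scr and Control, a ratio of 0.422 (0.148 to 0.979) for the first pair that rests on 6 UMIs in 84 cells, where 5.41% of all genes passed downwards. This call was kept in 7 of 12 alternatives, and the ratio was 0.872 when each cell was classed singly. Of these, dropping the minimum of UMIs could not lose a call. Nor could equal cluster make-up or leaving out clusters of high doublet score, since monocytes are a single cluster.

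The docking proteins differed in where they were found. Irs1, which carries the signal from the receptor to PI3K in many tissues, was highest by median in fibroblasts (chr1:82233101-82291416, minus strand), with 28.1, 28.8 and 31.0 CPM in fibroblasts of the libraries labelled HFpEF-FoxO1-sh, HFpEF-scr and Control. Schwann cells ranged from 13 to 33.5 CPM, above fibroblasts in HFpEF-scr, where they held 16 UMIs. Macrophages held 1.91, 2.51 and 2.06 CPM of it, and T cells held 0 UMIs in all 3 libraries. In fibroblasts the ratios were 0.975 (0.916 to 1.04) in the first pair and 0.932 (0.873 to 0.994) in the second. The first was not the same in all bands of mitochondrial share, at 0.945 (0.856 to 1.04) for 5 to 10%, 1.12 (1.01 to 1.25) for 10 to 15% and 0.577 (0.401 to 0.809) for 15 to 20%. In smooth muscle cells it had 19.9, 27.2 and 19 CPM, with HFpEF-scr the highest of the 3 and a ratio over Control of 1.43 (1.04 to 1.96) that was 3.39 (1.22 to 11.6) in cells of 5 to 10% mitochondrial UMIs and 1.14 (0.726 to 1.77) in those of 15 to 20%. B cells had 4.84, 15.6 and 11.5 CPM, a ratio of 0.31 (0.133 to 0.686) in the first pair. The class held 11, 19 and 13 UMIs in the libraries labelled HFpEF-FoxO1-sh, HFpEF-scr and Control, and its cluster led by Cd79a, Ly6d and Cd79b held 3, 0 and 0. Most lay in the other B cell cluster, which had 18, 85 and 83 cells in that order, too few in the first for a reading by cluster. The class ratio cannot be told apart from these unlike shares, and no lower level was read within either cluster. The call was kept in 7 of 10 alternatives, and the ratio was 0.634 with marked doublets kept.

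Irs2, the second docking protein and a known FoxO target (chr8:10984681-11008458, minus strand), was highest in B cells, with 112, 89.5 and 79.0 CPM in the libraries labelled HFpEF-FoxO1-sh, HFpEF-scr and Control. In the B cell cluster led by Cd79a it had 118, 122 and 141 CPM, with no difference beyond counting error. The ratios there were 0.971 (0.731 to 1.31) in the first pair and 0.864 (0.59 to 1.27) in the second. Lymphatic endothelial cells were at the other end, with 3.39, 2.38 and 1.61 CPM. In fibroblasts it had 35.7 CPM in the library labelled HFpEF-FoxO1-sh, against 29.4 CPM in HFpEF-scr and 30.7 CPM in Control. The ratio of the first pair was 1.21 (1.15 to 1.29), and the second pair lay within counting error (0.959, 0.899 to 1.02). The fibroblast ratio was above 1 in 6 of 7 clusters, with the Wif1-led cluster at 0.845 (0.667 to 1.07), and 5.21% of 10538 genes with at least 500 UMIs had a ratio as high.

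Irs2 in endothelial cells passed 1.5, with 9.61 CPM in the library labelled HFpEF-FoxO1-sh, 4.90 CPM in HFpEF-scr and 7.24 CPM in Control (1.96, 1.23 to 3.15, for the first pair, where 4.74% of all genes passed upwards). The difference was uneven between the 3 clusters of the class: 4.76 CPM against 1.46 CPM in the one led by Fabp4, Gpihbp1 and C1qtnf9 (3.26, 1.13 to 10.6), 10.5 CPM against 3.18 CPM in the one led by Rgs5, Sox17 and Rbp7 (3.3, 1.14 to 11.6), and 20.1 CPM against 20.8 CPM in the one led by Fabp4, Gpihbp1 and Timp4 (0.966, 0.505 to 1.84). The last of these had a median doublet score of 0.2974, so it may hold doublets. The call was kept in 9 of 13 alternatives, over which the ratio ran from 1.41 with each cell weighted alike to 3.53 without clusters of median doublet score over 0.2. Fibroblast markers in the endothelial class summed to 6453, 4793 and 6844 CPM in the libraries labelled HFpEF-FoxO1-sh, HFpEF-scr and Control, lowest in HFpEF-scr as Irs2 was, and their part in the Irs2 ratio was not tested. In macrophages Irs2 had 28.7, 27.9 and 22.4 CPM, with both HFpEF libraries above Control (HFpEF-scr over Control 1.24, 1.04 to 1.49), though in macrophages of 5 to 10% mitochondrial UMIs that ratio was 0.717 (0.486 to 1.06).

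**Figure D2:**
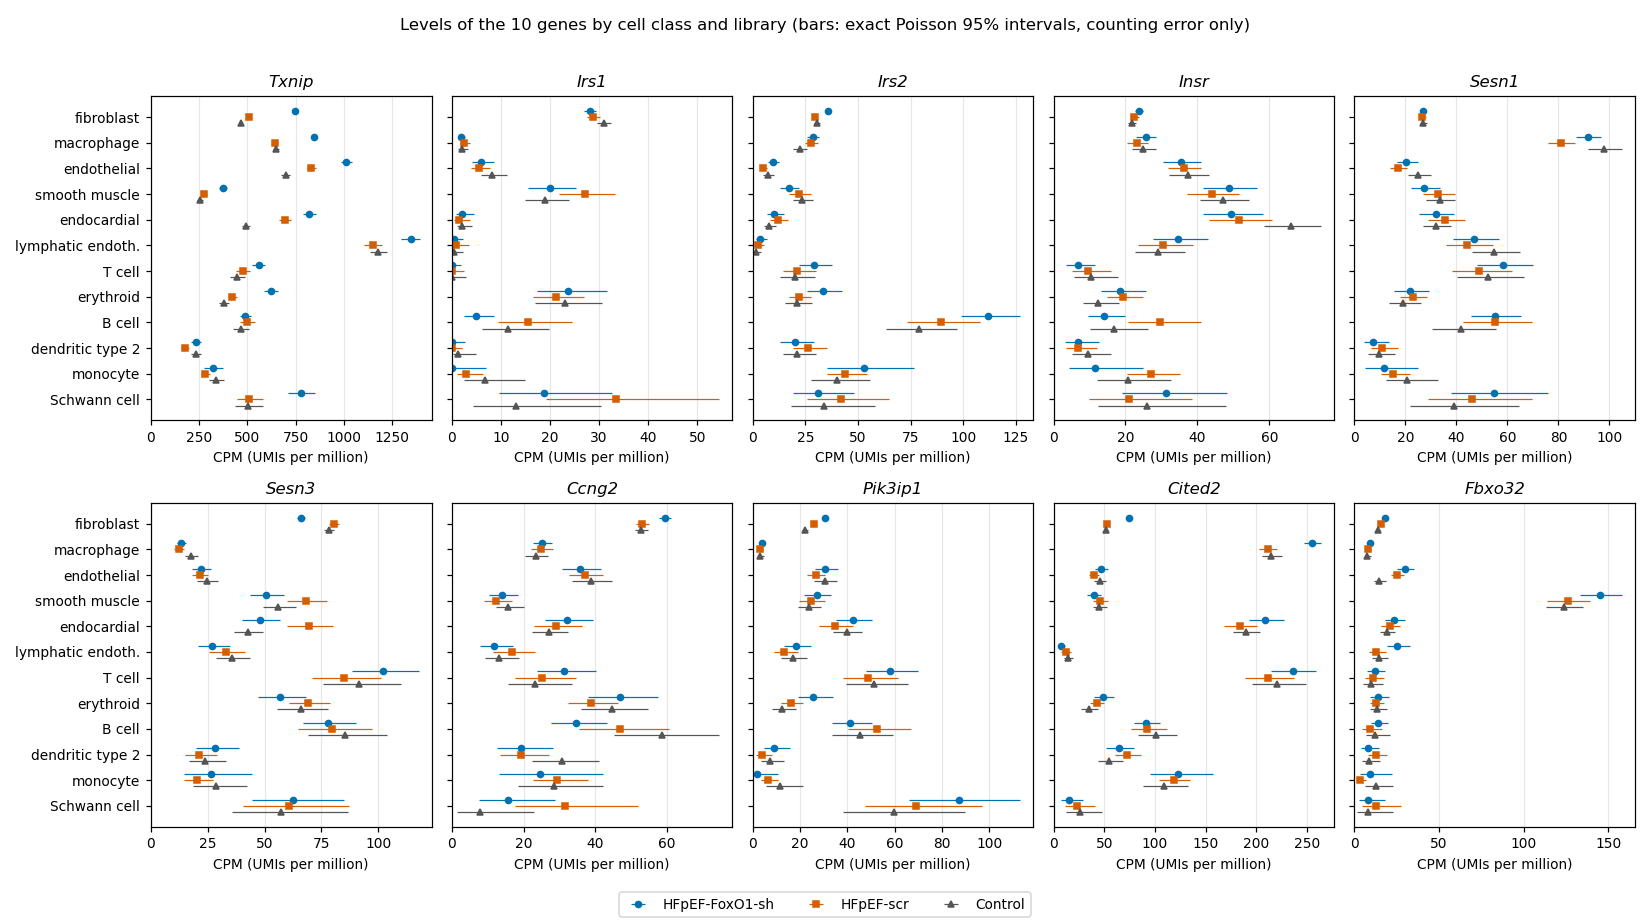
Level of each of the 10 genes (CPM, x axis) in 12 cell classes (y axis) for the libraries HFpEF-FoxO1-sh, HFpEF-scr and Control; bars are exact Poisson 95% intervals. Classes differ more than libraries for most genes, with Fbxo32 highest in smooth muscle cells, Sesn1 in macrophages and Irs1 in fibroblasts.

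Pik3ip1 encodes a membrane protein that binds the catalytic subunit of PI3K and restrains it (chr11:3330401-3342971, plus strand). Its highest levels were in Schwann cells, with 87.3, 69.0 and 59.9 CPM in the libraries labelled HFpEF-FoxO1-sh, HFpEF-scr and Control, and its lowest, by median, in macrophages, with 4.02, 3.23 and 3.32 CPM. Fibroblasts had 30.4, 26.1 and 22.1 CPM, so that Control was lowest and the library labelled HFpEF-FoxO1-sh highest. Both steps were of like size, 1.17 (1.10 to 1.24) in the first pair and 1.18 (1.10 to 1.27) in the second. The second ratio was above 1 in all 7 fibroblast clusters, and the first in 6 of 7, with the Igfbp3-led cluster at 0.871 (0.699 to 1.09). In the erythroid class it had 25.7, 16.1 and 12.5 CPM, and the first pair passed 1.5 (1.59, 1.06 to 2.39; 2.26% of all genes), in cells that hold fibroblast RNA. That call was kept in 9 of 14 alternatives, with ratios from 1.27 at a 10% mitochondrial limit to 2.54 when thinned. The erythroid class is a single cluster, so equal cluster make-up and leaving out clusters of high doublet score could not change its ratio. Dropping the minimum of UMIs could not lose the call either.

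Txnip encodes thioredoxin-interacting protein, an arrestin relative that binds thioredoxin and lowers glucose uptake by taking glucose transporters off the membrane (chr3:96557957-96561883, plus strand). Its level was higher in the library labelled HFpEF-FoxO1-sh than in HFpEF-scr in most classes. Over all kept cells it had 755, 541 and 503 CPM in the libraries labelled HFpEF-FoxO1-sh, HFpEF-scr and Control. In fibroblasts the values were 745, 509 and 467 CPM, a ratio of 1.46 (1.44 to 1.48) in the first pair and 1.09 (1.07 to 1.11) in the second. A ratio that high was found in 0.674% of 10538 fibroblast genes with at least 500 UMIs in the first pair; that of the second pair was reached by 15.5% of 10321.

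Macrophages had 843, 642 and 649 CPM of Txnip in the libraries labelled HFpEF-FoxO1-sh, HFpEF-scr and Control, so the library labelled HFpEF-FoxO1-sh stood above the other 2, which were level (1.31, 1.28 to 1.35, and 0.989, 0.955 to 1.02). Smooth muscle cells had 374, 275 and 254 CPM (1.36, 1.25 to 1.48, for the first pair). Of the Txnip ratios, that of Schwann cells passed 1.5, with 780, 510 and 505 CPM and a ratio of 1.53 (1.31 to 1.79; 3.53% of all genes passed upwards). Fibroblast markers in Schwann cells were at 7271, 14548 and 14067 CPM in that order of libraries, which was not tested as a part of this difference. The ratio was under the threshold with marked doublets kept (1.34), at a 50% mitochondrial limit and without mitochondrial UMIs.

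Lymphatic endothelial cells had 1345, 1152 and 1177 CPM in the libraries labelled HFpEF-FoxO1-sh, HFpEF-scr and Control, above every other class in each library. Blood endothelial cells came second in each library, with 1012, 831 and 699 CPM, and endocardial cells had 819, 693 and 494 CPM, a range that overlaps that of macrophages. In these last 2 classes HFpEF-scr was also above Control, by 1.19 (1.14 to 1.24) and 1.40 (1.32 to 1.49), and the library labelled HFpEF-FoxO1-sh was above HFpEF-scr by 1.22 (1.17 to 1.27) and 1.18 (1.11 to 1.26).

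Txnip in T cells had 558 CPM in the library labelled HFpEF-FoxO1-sh and 477 CPM in HFpEF-scr (1.17, 1.06 to 1.29). In the same order the erythroid class had 623 and 422 CPM (1.47, 1.36 to 1.59) and type 2 dendritic cells 232 and 177 CPM (1.31, 1.12 to 1.54). Monocytes had 321 and 283 CPM, with an interval that includes 1 (1.13, 0.949 to 1.35), and B cells had 489 and 500 CPM (0.979, 0.886 to 1.08). In type 2 dendritic cells and monocytes Control, at 234 and 340 CPM, was above HFpEF-scr (0.755, 0.645 to 0.883, and 0.832, 0.722 to 0.96, for HFpEF-scr over Control). The ratio of the first pair was thus above 1 in 11 of 12 classes, of which the erythroid class held fibroblast markers at close to the fibroblast level.

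**Figure D3:**
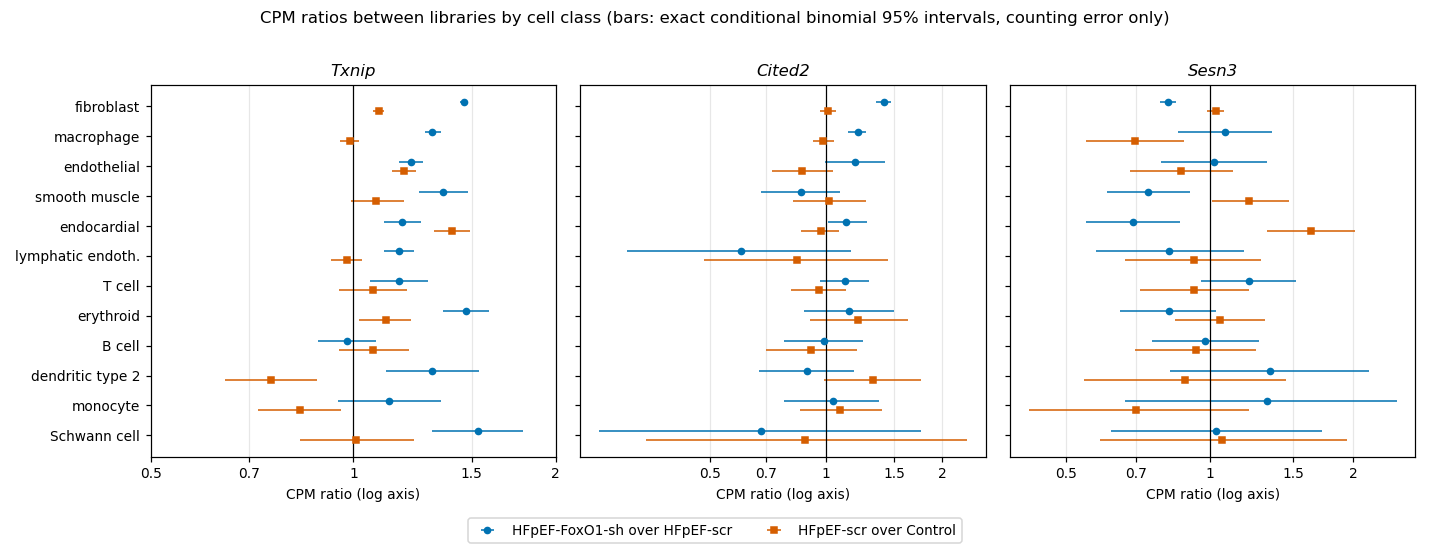
CPM ratios (log axis) of Txnip, Cited2 and Sesn3 in 12 cell classes for HFpEF-FoxO1-sh over HFpEF-scr and HFpEF-scr over Control, with exact conditional binomial 95% intervals. Txnip in the first comparison lies right of 1 in every class but B cells (0.979), and Sesn3 lies left of 1 in fibroblasts (0.817), smooth muscle (0.744) and endocardial cells (0.691).

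Txnip varied among fibroblast clusters, which were made without the 10 genes among the genes used to cluster. In the library labelled HFpEF-FoxO1-sh its level was 953 CPM in the cluster led by Smoc2, Hsd11b1 and Dpep1, against 645 CPM in HFpEF-scr and 606 CPM in Control. The cluster led by Wif1, Prg4 and 1500015O10Rik was lowest in that library, with 439 CPM, against 371 CPM in HFpEF-scr and 258 CPM in Control. The ratio of the first pair lay between 1.18 and 1.61 over the 7 clusters and was highest in the clusters led by Igfbp3, Myoc and Mmp3 and by Pi16, Gfpt2 and Cd248. The Wif1-led cluster, with the smallest ratio in the first pair, had the largest in the second, 1.44 for HFpEF-scr over Control.

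**Figure D4:**
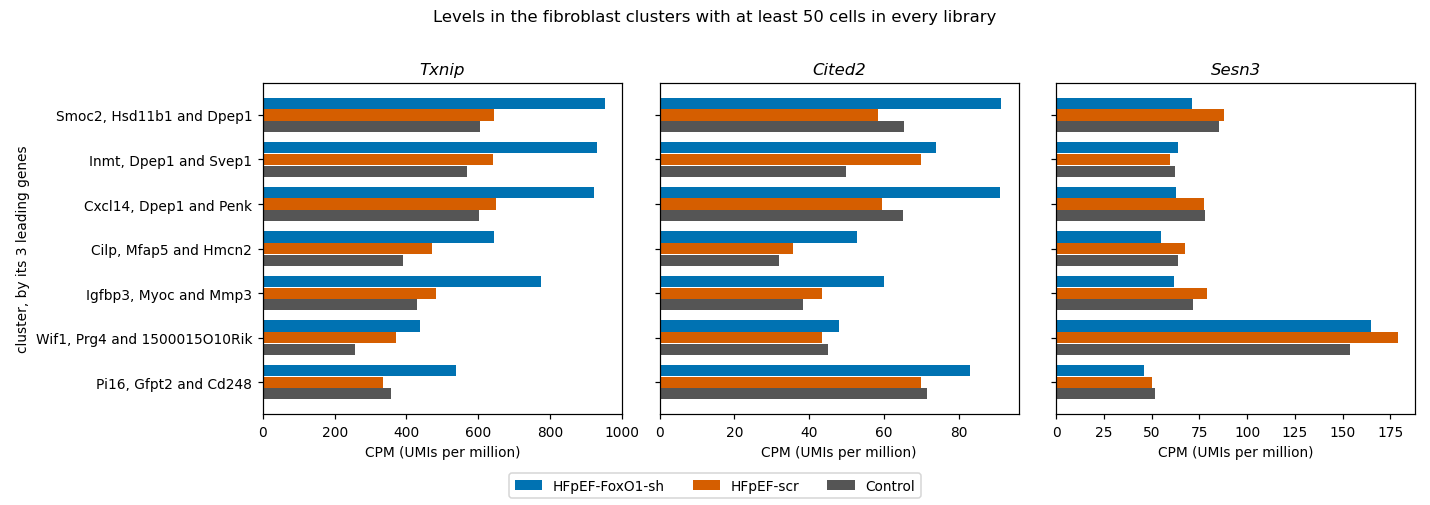
Levels (CPM, bars from 0) of Txnip, Cited2 and Sesn3 in the 7 fibroblast clusters with at least 50 cells in every library, named by their 3 leading genes, for the libraries HFpEF-FoxO1-sh, HFpEF-scr and Control. Txnip is highest in HFpEF-FoxO1-sh in all 7 clusters, and the Wif1-led cluster has the highest Sesn3 level in each library (165, 179 and 154 CPM).

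The mitochondrial share moved with the libraries, so Txnip was also read within bands of it, chosen after the data were seen. Fibroblasts had a median share of 8.68% in the library labelled HFpEF-FoxO1-sh, 12.2% in HFpEF-scr and 12.5% in Control. In fibroblasts of 5 to 10% mitochondrial UMIs Txnip had 722, 430 and 379 CPM in the libraries labelled HFpEF-FoxO1-sh, HFpEF-scr and Control. At 10 to 15% it had 859, 538 and 481 CPM, and at 15 to 20% it had 905, 560 and 549 CPM. The ratio of the first pair was 1.68, 1.60 and 1.62 in these bands, so it was as large within each band as over all fibroblasts. In macrophages it differed with the band, at 1.86, 1.28 and 1.11 from the lowest to the highest, with 842, 862 and 819 CPM in the library labelled HFpEF-FoxO1-sh and 452, 676 and 739 CPM in HFpEF-scr. Smooth muscle cells gave 1.19, 1.81 and 1.01, which shows no single size.

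**Figure D5:**
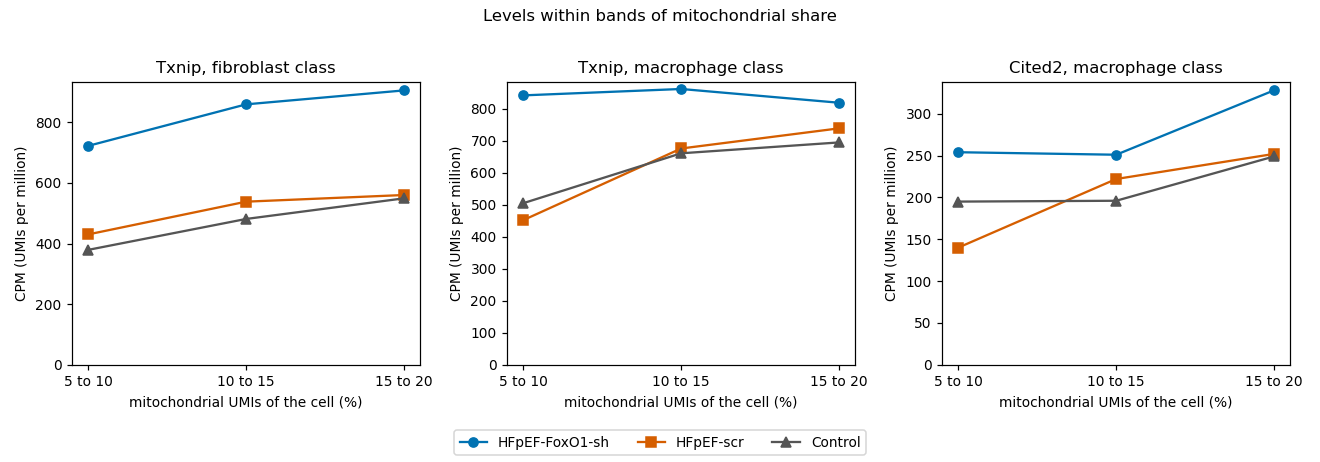
Level (CPM, y axis from 0) in cells of 5 to 10, 10 to 15 and 15 to 20% mitochondrial UMIs (x axis) of Txnip in fibroblasts, Txnip in macrophages and Cited2 in macrophages, for the libraries HFpEF-FoxO1-sh, HFpEF-scr and Control. The HFpEF-FoxO1-sh line is the highest in every band of all 3 panels, and the gap to HFpEF-scr for Txnip in macrophages is widest at 5 to 10% (842 against 452 CPM).

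Single cells gave the same order of libraries as the sums. The median Txnip level per 10000 UMIs of a fibroblast was 6.69 (quartiles 3.45 and 11) in the library labelled HFpEF-FoxO1-sh, 4.26 (1.88 and 7.49) in HFpEF-scr and 3.93 (1.77 and 6.84) in Control. Macrophages had medians of 7.49, 5.79 and 5.85. The quartiles of the libraries overlapped in both classes.

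Genes that work with Txnip or share its family were read from a list of 9, chosen with earlier results of these data known. In fibroblasts all 9 were above 1 in the library labelled HFpEF-FoxO1-sh against HFpEF-scr, with a median log2 ratio of 0.203 (all genes 0.0312), and 2 were higher past 1.5. Arrdc4, the closest paralog of Txnip and, like it, a known target of MondoA, had 24.1, 15.4 and 13.2 CPM in fibroblasts of the libraries labelled HFpEF-FoxO1-sh, HFpEF-scr and Control (1.57, 1.45 to 1.70, for the first pair, where 1.72% of all genes passed upwards). The second was Mlxipl, the gene of ChREBP, at 0.897, 0.532 and 1.08 CPM, so that HFpEF-scr was the lowest of the 3. In macrophages Arrdc4 had 26.5, 20.6 and 21.9 CPM (1.29, 1.09 to 1.52), and in endothelial cells it had 51.9, 55 and 39.0 CPM, where the first pair was level (0.944, 0.802 to 1.11) and HFpEF-scr was above Control (1.41, 1.18 to 1.69). Smooth muscle cells had 9.97, 9.15 and 10.9 CPM of Arrdc4, with no difference beyond counting error.

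Cited2 encodes a co-regulator that binds CBP and p300 and limits HIF-1 activity (chr10:17723218-17725674, plus strand). Its levels were highest in T cells, with 236, 212 and 221 CPM in the libraries labelled HFpEF-FoxO1-sh, HFpEF-scr and Control, in macrophages, with 255, 212 and 215 CPM, and in endocardial cells, with 209, 184 and 190 CPM. Lymphatic endothelial cells had the lowest, with 7.20, 11.9 and 14.1 CPM. In fibroblasts it had 74.0, 52.5 and 51.9 CPM, so the library labelled HFpEF-FoxO1-sh stood apart and the other 2 were level. The ratio of the first pair was 1.41 (1.35 to 1.47), a size reached by 0.864% of fibroblast genes with at least 500 UMIs, and that of the second pair was 1.01 (0.963 to 1.06).

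The Cited2 difference was present in some clusters more than others. Fibroblasts led by Smoc2, Hsd11b1 and Dpep1 had 91.3, 58.3 and 65.2 CPM in the libraries labelled HFpEF-FoxO1-sh, HFpEF-scr and Control (1.56 for the first pair). Those led by Inmt, Dpep1 and Svep1 had 73.7, 69.7 and 49.8 CPM, with an interval of 0.882 to 1.27 around 1.06 in the first pair. In macrophages the ratio of the first pair was 1.21 (1.14 to 1.27) for the class, 1.35 (1.25 to 1.45) in the cluster led by Folr2 and 1.03 (0.954 to 1.11) in the cluster led by H2-Eb1, a gene of antigen presentation. The cluster led by Stmn1, Gdf15 and Mmp12 had 215, 93.9 and 95.4 CPM (2.29, 1.65 to 3.23, for the first pair). It held only 62, 50 and 53 cells in the libraries labelled HFpEF-FoxO1-sh, HFpEF-scr and Control. Its median doublet score was 0.2683, so it may hold doublets. Within bands of mitochondrial share the macrophage ratio was 1.81, 1.13 and 1.30 and the fibroblast ratio 1.40, 1.44 and 1.22, from 5 to 10% upwards.

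Immediate early and dissociation genes moved with Cited2. All 15 of such a list were above 1 in fibroblasts of the library labelled HFpEF-FoxO1-sh against HFpEF-scr, with a median log2 ratio of 0.38 (all genes 0.0312) and summed levels of 10535 CPM against 8298 CPM. Of the list, 3 passed 1.5 upwards there, as 1.72% of all genes did, Fosb with 285 CPM against 179 CPM, Atf3 with 72.7 CPM against 42.8 CPM and Btg2 with 361 CPM against 234 CPM. In macrophages all 15 were above 1 as well, with a median log2 ratio of 0.324 (all genes 0.0321) and sums of 18777 CPM against 15252 CPM. The part of these genes, or of tissue handling, in the Cited2 and Txnip values was not tested.

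The sestrins bind upstream regulators of mTORC1 and restrain it. Sesn3, known as a FoxO target (chr9:14275067-14333101, plus strand), had 65.9, 80.6 and 78.4 CPM in fibroblasts of the libraries labelled HFpEF-FoxO1-sh, HFpEF-scr and Control. It was the 1 gene of the set lower past 1.2 in that class in the library labelled HFpEF-FoxO1-sh, at 0.817 (0.786 to 0.849), and 97.5% of fibroblast genes with at least 500 UMIs had a ratio as high or higher. The ratio was below 1 in 6 of 7 fibroblast clusters, with the Inmt-led cluster at 1.06 (0.874 to 1.30), and was 0.798, 0.834 and 0.839 in the 3 bands of mitochondrial share from 5% upwards. HFpEF-scr and Control were level in fibroblasts (1.03, 0.988 to 1.07).

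Sesn3 was also lower in smooth muscle cells of the library labelled HFpEF-FoxO1-sh, with 50.7 CPM, against 68.2 CPM in HFpEF-scr and 56.1 CPM in Control (0.744, 0.608 to 0.908, for the first pair). By mitochondrial share that ratio was 0.543 (0.377 to 0.781), 0.895 (0.626 to 1.27) and 0.886 (0.625 to 1.25) from 5 to 10% upwards. Only the lowest of these bands had an interval excluding 1. Endocardial cells had 48.0, 69.4 and 42.5 CPM in the libraries labelled HFpEF-FoxO1-sh, HFpEF-scr and Control, so HFpEF-scr was the highest of the 3. Its ratio over Control, 1.63 (1.32 to 2.02), passed 1.5, as 2.9% of all endocardial genes did upwards, but not with each cell classed singly (1.36) or when thinned, and the library labelled HFpEF-FoxO1-sh against HFpEF-scr was at 0.691 (0.55 to 0.867). These 2 ratios share the HFpEF-scr value. T cells had the highest levels, with 102, 84.9 and 91.6 CPM, where the first pair did not differ beyond counting error (1.21, 0.958 to 1.52), and macrophages had the lowest, with 13.3, 12.4 and 17.8 CPM.

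Sesn1, a sestrin known as a p53 target (chr10:41809935-41908424, plus strand), had another distribution. Macrophages held its highest levels, with 91.7, 81.0 and 97.9 CPM in the libraries labelled HFpEF-FoxO1-sh, HFpEF-scr and Control, so HFpEF-scr was the lowest (0.828, 0.753 to 0.91, over Control, and 1.13, 1.04 to 1.23, for the library labelled HFpEF-FoxO1-sh against HFpEF-scr). Over Control the ratio was 0.707 (0.601 to 0.833) in the cluster led by H2-Eb1 and 0.927 (0.823 to 1.04) in that led by Folr2. By mitochondrial share it was 1.11 (0.861 to 1.45), 0.843 and 0.747 from 5 to 10% upwards. The first pair gave 1.06 (0.908 to 1.23) and 1.11 (0.995 to 1.23) in those clusters. It gave 1.78 (1.06 to 3.1) in the one led by Stmn1. By share it gave 1.31 (1.12 to 1.54), 1.02 (0.892 to 1.17) and 0.967 (0.742 to 1.25). Endothelial cells had 20.4, 17.1 and 25.1 CPM, again with HFpEF-scr lowest (0.68, 0.523 to 0.883, over Control). Fibroblasts had 26.9, 26.6 and 26.9 CPM, the most level values of the set in that class.

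Ccng2 encodes cyclin G2, an unusual cyclin linked to cell cycle arrest (chr5:93267257-93276231, plus strand). Fibroblasts had 59.3, 53.0 and 52.7 CPM in the libraries labelled HFpEF-FoxO1-sh, HFpEF-scr and Control, a ratio of 1.12 (1.07 to 1.17) in the first pair and 1.01 (0.958 to 1.06) in the second. B cells had 34.7, 46.8 and 58.6 CPM, with intervals that include 1 in both pairs. Lymphatic endothelial cells, with 11.9, 16.7 and 13.3 CPM, and smooth muscle cells, with 14.0, 12.4 and 15.8 CPM, had the lowest medians, and their ranges overlapped each other and that of Schwann cells, at 15.6, 31.4 and 7.81 CPM.

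Fbxo32 encodes atrogin-1, the substrate-binding part of a ubiquitin ligase of muscle atrophy (chr15:58175879-58214932, minus strand). Smooth muscle cells held by far its highest levels, with 145, 126 and 124 CPM in the libraries labelled HFpEF-FoxO1-sh, HFpEF-scr and Control, and a ratio in the first pair of 1.15 (1.01 to 1.31). Endothelial cells came next by median, overlapping endocardial cells, with 30, 25.4 and 14.7 CPM, where both HFpEF libraries stood above Control. The ratio of HFpEF-scr over Control there was 1.73 (1.31 to 2.31), past 1.5 as 1.69% of all endothelial genes were upwards, and it was 1.42 (0.587 to 3.57) to 1.82 (1.19 to 2.85) in the 3 endothelial clusters. That call was lost at a 50% mitochondrial limit (1.29) and when thinned (2.45, from fewer UMIs). The library labelled HFpEF-FoxO1-sh against HFpEF-scr gave 1.18 (0.943 to 1.48) in the same cells.

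Lymphatic endothelial cells had 25.4 CPM of Fbxo32 in the library labelled HFpEF-FoxO1-sh, against 12.9 CPM in HFpEF-scr and 14.5 CPM in Control, from 60, 27 and 36 UMIs. The first pair passed 1.5 (1.98, 1.23 to 3.24; 2.9% of all genes passed upwards), and with each cell thinned to 1000 UMIs the ratio was 1.03. In fibroblasts Fbxo32 had 18.0, 15.9 and 14.0 CPM in the libraries labelled HFpEF-FoxO1-sh, HFpEF-scr and Control, a ratio of 1.13 in each pair (1.04 to 1.23 and 1.03 to 1.24).

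Other genes of the pathway were read from lists chosen with earlier results known. Of 56 genes of insulin and PI3K-AKT signalling, 54 were measured in fibroblasts, and in the library labelled HFpEF-FoxO1-sh against HFpEF-scr 1 was higher and 0 were lower past 1.5 (1.72% and 2.54% of all genes were), with a median log2 ratio of 0.000118 (all genes 0.0312). The 1 gene was Socs3, a feedback inhibitor of cytokine and insulin receptors, with 124, 56.9 and 85.9 CPM in the libraries labelled HFpEF-FoxO1-sh, HFpEF-scr and Control (2.19, 2.10 to 2.27, for the first pair and 0.663, 0.635 to 0.691, for the second). The second ratio lost its call in 4 alternatives, for example at a 10% mitochondrial limit (0.751). In HFpEF-scr over Control 0 were higher and 2 were lower in fibroblasts (2.02% and 1.88% of all genes were), Socs3 and Slc2a1, the gene of the glucose transporter GLUT1, with 3.49 CPM against 5.95 CPM. Igf1r, the receptor closest to Insr, had 104, 101 and 89.5 CPM in fibroblasts, with HFpEF-scr above Control (1.13, 1.09 to 1.18) and the first pair level (1.02, 0.987 to 1.05). Pik3r1, the main regulatory subunit of PI3K, had 86.8, 89.1 and 91.6 CPM there.

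Endothelial cells had 3 pathway genes past 1.5 in each comparison. Of 55 measured, 2 were higher (4.74% of all genes were) and 1 was lower (2.1% of all genes were) in the library labelled HFpEF-FoxO1-sh against HFpEF-scr: Pde3b, the phosphodiesterase through which insulin lowers cyclic AMP, with 8.21 CPM against 4.16 CPM, Grb14, an inhibitor of the insulin receptor, with 5.81 CPM against 2.97 CPM, and Pik3r3, a regulatory subunit of PI3K, with 31.8 CPM against 48.6 CPM. In HFpEF-scr over Control 2 were higher (1.69% of all genes were) and 1 was lower (3.63% of all genes were), among them Sgk1, a kinase related to AKT, with 381 CPM against 236 CPM (1.61, 1.5 to 1.73). The lower one was Slc2a1, with 3.42 CPM against 7.64 CPM from 23 and 38 UMIs. With cells thinned to 1000 UMIs the direction turned for Slc2a1 (2.8) and for Grb14 (0.402), and at a 50% mitochondrial limit Pde3b was at 1.3 and Sgk1 at 1.37. In macrophages 52 genes were measured and 1 passed 1.5 in the library labelled HFpEF-FoxO1-sh against HFpEF-scr, where 2.01% of all genes were higher and 2.7% were lower. It was Pik3cb, a catalytic subunit of PI3K, which was lower with 9.10 CPM against 13.8 CPM (0.659) and under the threshold in 5 alternatives.

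A list of 45 other genes under FoxO control had 40 measured in fibroblasts. In the library labelled HFpEF-FoxO1-sh against HFpEF-scr 0 were higher and 2 were lower past 1.5 (1.72% and 2.54% of all genes were), with a median log2 ratio of 0.0228 (all genes 0.0312), and both are lymphocyte or endothelial genes at very low levels there: S1pr1, with 0.666 CPM against 1.42 CPM, and Il7r, with 0.0641 CPM against 0.626 CPM. In HFpEF-scr over Control 0 were higher and 2 were lower (2.02% and 1.88% of all genes were), of which Klf15, a factor induced by glucocorticoids, had 11.1 CPM against 20.2 CPM (0.551, 0.502 to 0.605). In endothelial cells of the library labelled HFpEF-FoxO1-sh against HFpEF-scr, Bcl6 was higher past 1.5 (2.08), as 4.74% of all genes were. No other gene of the list passed 1.5 there in either direction, where 2.1% of all genes were lower. The Bcl6 call was kept in 12 of 13 alternatives and lost when thinned (1.93). In endothelial cells of HFpEF-scr over Control 38 of the list were measured, 2 were higher and 2 were lower (1.69% and 3.63% of all genes were). Of the higher ones Depp1, a FoxO-induced regulator of autophagy, had 196 CPM against 117 CPM (1.68, 1.52 to 1.86), and Klf2, a flow-responsive factor, had 772 CPM against 512 CPM (1.51, 1.44 to 1.58), a call lost in 6 alternatives with ratios down to 1.37. The lower ones were Sesn2, the remaining sestrin, with 1.34 CPM against 3.62 CPM from 9 and 18 UMIs, and Klf15, with 2.08 CPM against 4.82 CPM from 14 and 24 UMIs; Sesn2 was at 0.804 at a 50% mitochondrial limit. Foxo1 in the same cells was 63.1, 81.0 and 67.3 CPM, as given above, and Foxo3 was 19.4, 17.2 and 18.7 CPM in the libraries labelled HFpEF-FoxO1-sh, HFpEF-scr and Control.

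Likeness of pattern was measured for each gene as Pearson's r of log2(CPM + 10) over 36 sums, 12 classes in 3 libraries, against 12553 genes, as a description with no test, since the sums share libraries and depth. The gene most like Fbxo32 was Npnt (0.951), and like Irs1 it was Mmp23 (0.951). For Cited2 it was Jun (0.856), an immediate early gene, and for Txnip it was Tgfbr2 (0.829), a receptor of TGF-beta. Irs2 was most like Ddit3 (0.829), Sesn3 most like Gem (0.806) and Pik3ip1 most like Crebzf (0.836). The highest values for Insr, Ccng2 and Sesn1 were 0.888 with Gtf2a2, 0.801 with Chic2 and 0.78 with AC149090.1. Among the 10 genes themselves Pik3ip1 and Sesn3 were the most alike (0.734) and Irs2 and Txnip the least (-0.459), so the set did not share 1 pattern across classes.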

How the data were processed

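The deposited matrices hold UMI counts for each gene in each barcode. The submitters' processing notes name Cell Ranger 6.1.2 and mm10. The annotation release is not given in the sources used here; gene positions are those of GENCODE M21 on mm10.

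Barcodes under 500 UMIs, under 300 genes or over 20% mitochondrial UMIs were dropped. Scrublet, run per library in scanpy 1.11.5 (expected rate 12%), marked 3.09%, 2.29% and 1.41% of them as doublets in the libraries labelled HFpEF-FoxO1-sh, HFpEF-scr and Control, and these were removed; the rates are below the expected one, so doublets may remain. Cells were clustered on 2000 variable genes without the genes reported here (30 components, 15 neighbours, Leiden in igraph 0.11.9, resolution 1.0, seed 0, no batch correction). Classes were given from marker lists: a cluster went to the list best represented among its 50 leading genes, if at least 3 of its markers were detected in at least 10% of cells. Clusters with fewer than 3 markers were ranked again, against only the clusters already named as something other than fibroblasts. All fibroblast clusters took their name in this later pass.

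CPM is the UMI sum of a gene in a class of 1 library, scaled to 1000000 UMIs of that class. Levels have exact Poisson and ratios exact conditional binomial (Clopper-Pearson) 95% intervals, from scipy 1.17.1. A gene counts as higher or lower past 1.5 where its CPM ratio reaches 1.5 either way, its interval excludes 1 and both libraries together hold at least 20 UMIs. Log2 ratios use CPM + 1. No test was run, since each group is 1 library; the code was tested on simulated data. UMIs of 1 cell are not independent of each other, so true errors are wider than the intervals.

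All 10 genes could be named in every class compared. Of each other list, up to 4 genes per class and comparison with the largest log2 ratio past 1.5 could be named in the 4 largest classes, with Foxo1, Foxo3, Igf1r, Pik3r1 and Arrdc4 in any class, and for each gene the 3 most alike. The 10 genes and all lists were chosen with earlier results of these data known. Promoter windows are from RefSeq, GRCm38.p6, whose start sites can differ from the GENCODE gene bounds. Python 3.11.15, numpy 2.4.6, pandas 2.3.3, anndata 0.12.19, scikit-learn 1.9.0 and matplotlib 3.10.9 were used.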

Additional observations from a re-analysis of the deposited data

How the results depend on the processing

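No paired analysis was possible because each group is 1 library. Settings were changed one at a time: 14 alternatives, of which equal cluster make-up and leaving out clusters of median doublet score over 0.2 were chosen after seeing the data, as were the reading within clusters, the bands of mitochondrial share and the ratio of 1.2. Dropping the minimum of UMIs could not lose a call in any class. Equal cluster make-up and the limit on doublet score could not change a class made of a single cluster below that limit. Counts of alternatives that kept a call include these settings. In fibroblasts, the library labelled HFpEF-FoxO1-sh against HFpEF-scr gave ratios that ranged over the alternatives from 1.41 to 1.66 for Txnip, 1.30 to 1.45 for Cited2 and 0.787 to 0.86 for Sesn3.

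Counts of the gene and class pairs past the threshold moved as follows. In HFpEF-scr over Control, pairs higher were 4 at a 10% mitochondrial limit (which left 7 classes), 1 at a 50% limit and 1 with cells thinned to 1000 UMIs; pairs lower were 2 at 10% and with marked doublets kept, and 1 at 50%, with at least 1000 UMIs per barcode, with each cell classed singly, at resolution 2.0, with cells weighted alike, with no minimum of UMIs and without the clusters of high doublet score. In the library labelled HFpEF-FoxO1-sh against HFpEF-scr, pairs higher were 2 when thinned and 2 at a minimum of 100 UMIs, and pairs lower were 1 at a 50% limit and 0 at that minimum. A ratio of 1.2 gave 6 higher and 6 lower of 110 in HFpEF-scr over Control (5.31% and 5.4% of all gene and class pairs were), and 14 higher and 6 lower of 110 in the library labelled HFpEF-FoxO1-sh against HFpEF-scr (6.28% and 7.23%).

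Ratios changed sign when thinned for Insr in B cells (1.19) and Grb14 in endothelial cells (0.402) in the library labelled HFpEF-FoxO1-sh against HFpEF-scr, and in HFpEF-scr over Control for Slc2a1 (2.8) and Ddit4 (0.961) in endothelial cells, Tbc1d4 (1.11), Cat (0.484) and S1pr1 (1.11) in smooth muscle cells and Arrdc4 (0.823) in lymphatic endothelial cells. Igf1r in B cells was 1.28 at a 50% limit and 2.17 with equal cluster make-up or without the clusters of high doublet score, and Irs2 in endothelial cells was 0.966 within the cluster led by Fabp4, Gpihbp1 and Timp4. Thinning leaves few UMIs of low genes; the cause of the other changes was not tested.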
